A study of Homo sapiens with 6 samples.

Results

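HuR sites were examined on the transcripts of 7 genes of DNA methylation and chromatin silencing: DNMT1, DNMT3A, DNMT3B, TET1, TET2, EZH2 and HDAC2. The genes were chosen by their role, and a site was counted when it lay on the strand of the gene and overlapped the gene's hg19 span. The 7 spans add up to 597.6 kb. They held 177 of 186157 sites in HuR replicate 1, 390 of 405048 in replicate 2 and 524 of 550681 in replicate 3. The combined list of the 3 replicates held 610 of its 658853 sites there.

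The study used DO-RIP-seq, in which a cell lysate is digested with micrococcal nuclease and RNA fragments are recovered by immunoprecipitation and sequenced. The cells were HEK293, an established human embryonic kidney line, with no treatment named in the labels. The group used here is 3 immunoprecipitations with the mouse antibody 3A2 to HuR. The labels also list 3 immunoprecipitations with normal mouse serum, which are not analysed here as separate values. Fragments of 25 to 70 nt were cut from a gel. Digested lysate was pooled before it was divided, so the SD over the 3 replicates may be technical only. Each deposited interval carries a LOD score from the authors, of unknown scale. Scores are therefore given as percentiles within their own list when replicates are set side by side.

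HuR, the product of ELAVL1, is an RNA-binding protein that prefers U-rich and AU-rich RNA and binds both introns of precursor RNA and 3′ untranslated regions of mRNA. It is known for stabilising mRNAs with such elements. DNA methyltransferases put methyl groups on cytosine: DNMT1 copies the marks after replication, and DNMT3A and DNMT3B set marks at unmarked sites. TET enzymes oxidise methylcytosine and so start its removal. EZH2 is the methyltransferase of Polycomb repressive complex 2, which marks lysine 27 of histone H3, and HDAC2 is a histone deacetylase of several co-repressor complexes. DNMT3B mRNA is a known target of HuR. No sequence of a site is shown, because no hg19 genome was at hand, and for the same reason no site was assigned to an exon or intron.

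The 7 genes took nearly the same share of every list, and the genes differed widely among themselves. Per 10000 sites of the list, the members held 9.51 in replicate 1, 9.63 in replicate 2 and 9.52 in replicate 3, a mean of 9.55 ± 0.0675 (SD, n = 3). Replicate 3 had 2.96 times as many member sites as replicate 1, the same ratio as between the whole lists (2.96). HDAC2 had the densest sites and DNMT3A the sparsest in all 3 replicates. More RNA of a gene and more HuR on each RNA cannot be told apart in these lists. RNA abundance was not analysed here, and whether the authors' scores take the control immunoprecipitations into account is not stated in the sources.

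**Figure D1:**
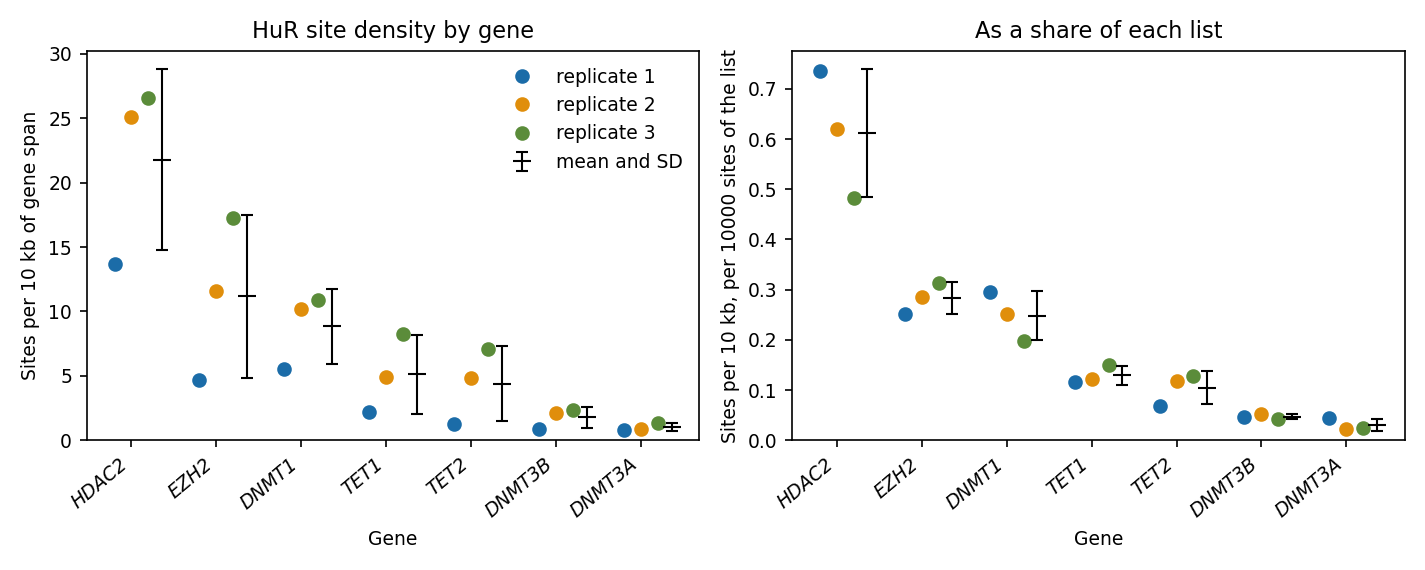
HuR sites per 10 kb of gene span (left) and the same divided by 10000 sites of the list (right), for 7 genes; coloured points are the 3 HuR replicates, and black bars are the mean and SD. HDAC2 lies highest in both panels, at 13.7 to 26.5 sites per 10 kb on the left, and DNMT3A lies lowest in all replicates on the left.

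DNMT1, the maintenance methyltransferase, lies at chr19:10244022-10305755 on the minus strand and spans 61.7 kb. It carried 34 sites in replicate 1, 63 in replicate 2 and 67 in replicate 3, or 5.51, 10.2 and 10.9 sites per 10 kb, with a mean of 8.86 ± 2.92 (SD, n = 3). Its sites scored high within each list, with median percentiles of 77.2, 61.5 and 71.5 in replicates 1, 2 and 3, and no other member had a higher mean (70.1 ± 7.94, SD, n = 3). As a share of the list, DNMT1 was highest in replicate 1 and lowest in replicate 3, at 1.83, 1.56 and 1.22 sites per 10000.

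Many of the DNMT1 sites recurred. Of its 81 combined sites, 32 (39.5%) overlapped all 3 replicate lists, against 22.9% of all combined sites and 37.7% for HDAC2, the next member. By replicate sites matched in the remaining lists, DNMT1 was not the first of the 7 without replicate 1, 2 or 3 in turn, nor with at least 50% of each interval shared, where DNMT3A had 55.6% and DNMT1 48.7%. The authors' p filter kept 56 of the 81 (69.1%, 95% Wilson interval 58.4 to 78.1, counting error only), against 52.3% of all combined sites. The highest-scoring recurrent site lay at chr19:10262931-10263010, 42.7 kb from the 5′ end, with a combined LOD of 18.8. It stood at percentiles 98.2, 99.4 and 89.9 of the replicate lists. A second site at chr19:10290661-10290735, 15.0 kb from the 5′ end, had a nearly equal LOD of 18.7.

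DNMT1 was also called at its very 3′ end. A site of 170 nt at chr19:10244021-10244190 reached the last base of the span, with a combined LOD of 17.3 and percentiles of 88.4, 98.9 and 86.2 in the replicates. Bases called in all 3 replicates otherwise lay in separate groups along the gene: of 10 equal parts of the span, the first held 190 nt, the third 305 nt and the fourth 360 nt, while the second and the ninth held none. The fullest stretch of 10 kb, at chr19:10255756-10265755, held 415 nt and 11, 12 and 14 sites in the replicates.

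**Figure D2:**
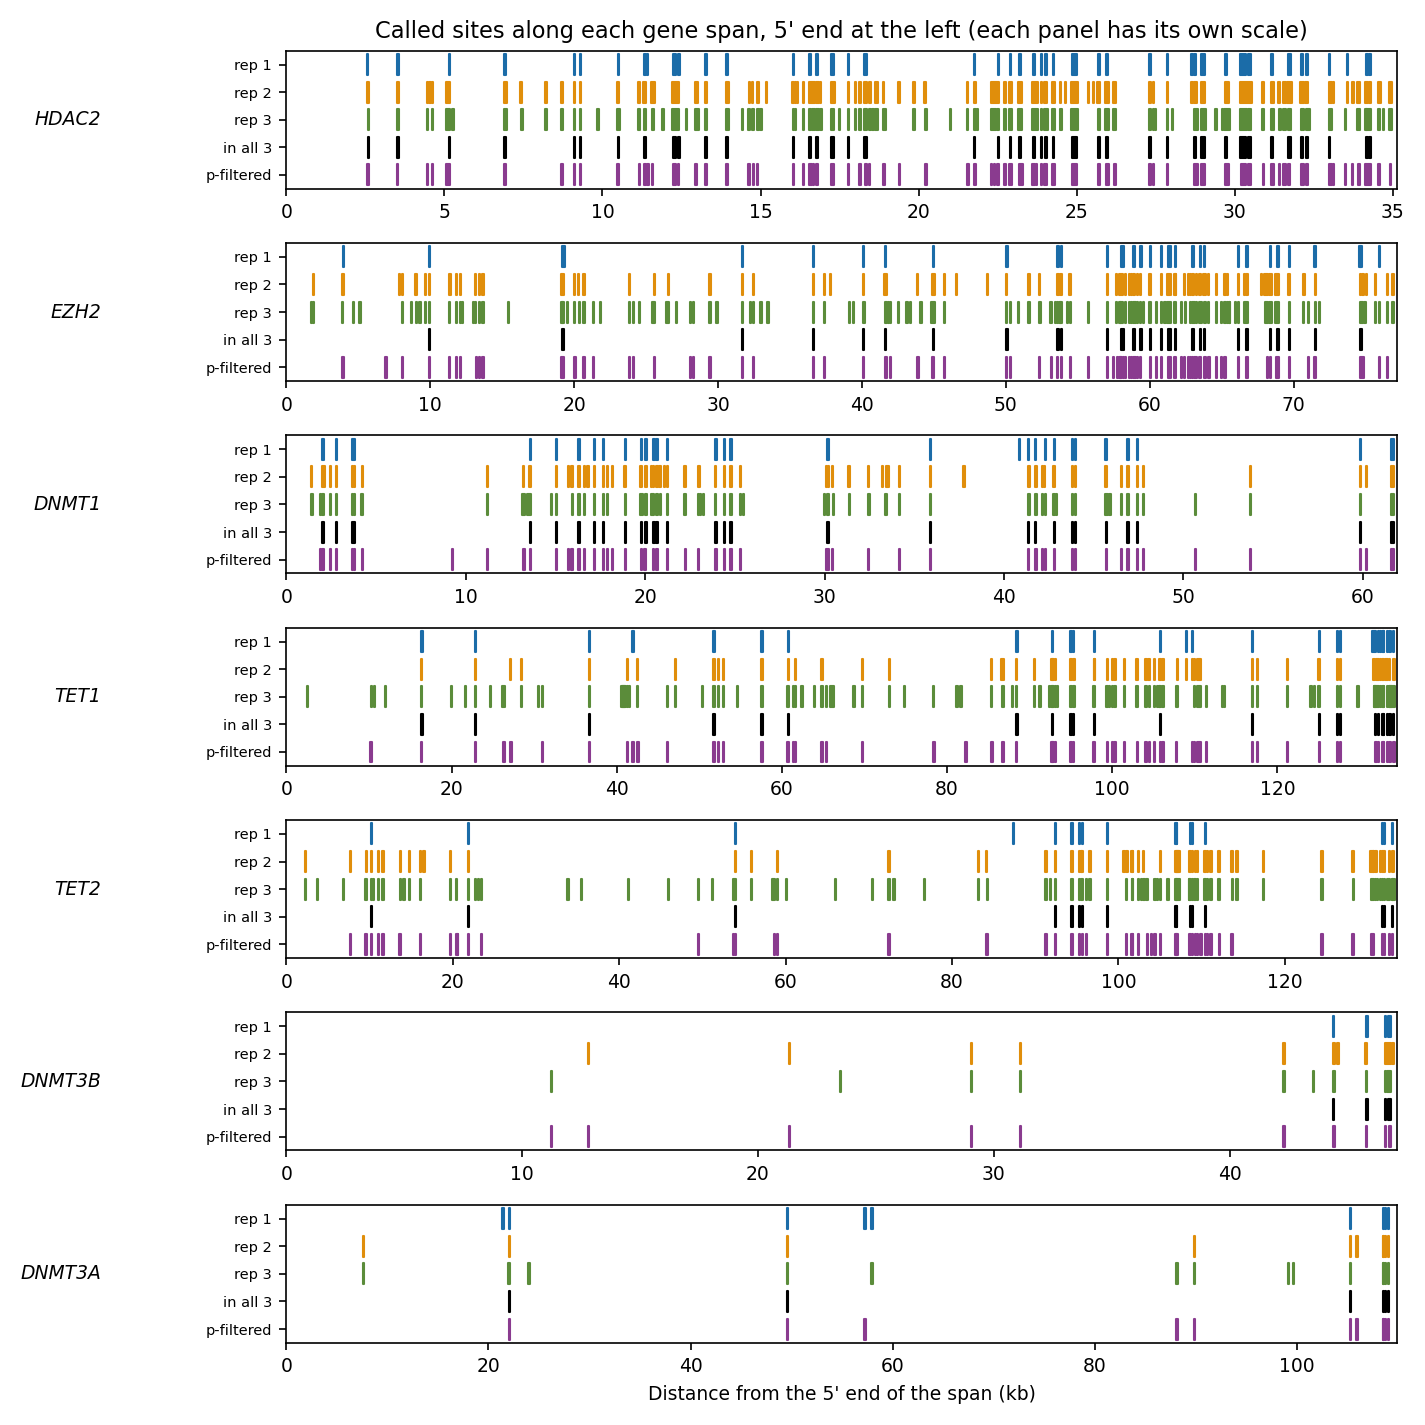
Position of called sites along each of the 7 gene spans, in kb from the 5′ end, with 1 panel per gene at its own scale; rows show replicates 1, 2 and 3, bases called in all 3 and the p-filtered list, and narrow sites are widened to stay visible. DNMT3B has bases called in all 3 replicates only at its 3′ end, whereas HDAC2 has them in all 10 equal parts of its span.

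DNMT3A and DNMT3B, the de novo methyltransferases, had few sites for their length, and those that recurred were mostly at the 3′ end. DNMT3A lies at chr2:25455830-25565459 on the minus strand and spans 109.6 kb. It carried 9, 10 and 15 sites in replicates 1, 2 and 3, or 0.821, 0.912 and 1.37 per 10 kb. DNMT3B lies at chr20:31350191-31397162 on the plus strand and spans 47.0 kb. It carried 4, 10 and 11 sites, or 0.852, 2.13 and 2.34 per 10 kb. The mean densities were 1.03 ± 0.293 and 1.77 ± 0.806 sites per 10 kb (SD, n = 3). DNMT3B was denser than DNMT3A in all 3 replicates, but their ranges overlapped.

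In the last 5 kb of the DNMT3A span, HuR was called on 315 of the 400 nt shared by all 3 replicates, or 78.8%, in 4.56% of the length. That stretch held 4, 6 and 5 sites in replicates 1, 2 and 3. The highest-scoring site of the gene lay there, at chr2:25456581-25456755, 751 nt from the 3′ end. It was 175 nt wide with a combined LOD of 15.7, and stood at percentiles 87.4, 95.6 and 97.6 of the replicate lists. Another site of 140 nt at chr2:25456771-25456910, with a LOD of 12.0, lay beside it. Away from the 3′ end, a site at chr2:25543361-25543430, 22.0 kb from the 5′ end, reached a LOD of 15.1 and percentiles of 89.6, 93.7 and 87.9.

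All 255 nt of DNMT3B that were called in 3 replicates lay in its last 5 kb, which is 10.6% of the span. The stretch held 4, 6 and 7 sites in replicates 1, 2 and 3, so every replicate 1 site of the gene lay in it. At chr20:31394561-31394655, 2507 nt from the 3′ end, the combined LOD was 14.4 and the replicate percentiles were 79.3, 96.6 and 87.0. A wide site of 295 nt at chr20:31396761-31397055 ended 107 nt from the 3′ end and scored lower, with a LOD of 7.76 and percentiles of 58.6, 26.6 and 60.4. Further up the gene, a site at chr20:31381296-31381350 had a LOD of 11.4 but overlapped only 2 replicate lists.

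With so few sites, shares for these 2 genes are imprecise. Of the 19 combined sites of DNMT3A, 6 (31.6%) overlapped all 3 replicate lists and 11 were kept by the p filter (57.9%, Wilson interval 36.3 to 76.9). Of the 15 of DNMT3B, 3 (20.0%) overlapped all 3 lists and 9 were kept (60.0%, Wilson interval 35.7 to 80.2). Over all combined sites the shares were 22.9% and 52.3%, and both Wilson intervals hold the latter. The mean percentile of their replicate sites was 42.8 ± 12.6 for DNMT3A and 34.4 ± 2.10 for DNMT3B (SD, n = 3, of each replicate's median). The next lowest mean was that of TET1, at 51.5. DNMT3A medians were 29.6, 43.9 and 54.8 in replicates 1, 2 and 3, so replicate 3 lay above the middle of its list. In the combined list the median percentile was 63.0 for DNMT3A and 47.0 for DNMT3B, so low scores did not hold there for DNMT3A.

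TET1 and TET2, the methylcytosine oxidases, had long spans with sites throughout and a cluster at the 3′ end. TET1 lies at chr10:70320117-70454239 on the plus strand and spans 134.1 kb, and TET2 lies at chr4:106067842-106200960 on the plus strand and spans 133.1 kb. TET1 carried 29, 66 and 111 sites in replicates 1, 2 and 3, or 2.16, 4.92 and 8.28 per 10 kb. TET2 carried 17, 64 and 94, or 1.28, 4.81 and 7.06 per 10 kb. The 2 genes were close in mean density, at 5.12 ± 3.06 and 4.38 ± 2.92 (SD, n = 3). TET1 was higher in each replicate, and the ratio between the 2 genes was largest in replicate 1 (2.16 against 1.28).

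TET2 differed most in number between lists: replicate 3 had 5.53 times as many sites as replicate 1, against 3.83 times for TET1 and 2.96 times for the whole lists. The ratio for DNMT3A was 1.67. As a share of the list, TET2 stood at 0.913, 1.58 and 1.71 sites per 10000, so replicate 1 lay below both others. Of the 115 combined sites of TET2, 15 (13.0%) overlapped all 3 replicate lists, and for TET1 it was 24 of 120 (20.0%), against 22.9% of all combined sites. No interval was computed for these shares, and that of TET1 was near the share of all sites. The p filter kept 54 sites of TET2 (47.0%, Wilson interval 38.1 to 56.0) and 64 of TET1 (53.3%, Wilson interval 44.4 to 62.0). Both intervals hold the 52.3% of all combined sites.

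One site of TET2 stood far above the rest of that gene in combined score. At chr4:106121776-106121810, 53.9 kb from the 5′ end, a site of 35 nt had a combined LOD of 22.7 and percentiles of 99.8, 95.4 and 98.6 in the replicates. The next site of the gene in score, at chr4:106174681-106174730, had a LOD of 16.8 and percentiles of 91.05, 92.8 and 88.5. In replicate 2 alone the gap was small, with LODs of 7.66 and 7.23 for the 2 sites. No site of TET1 reached the combined LOD of either site: its highest, at chr10:70425836-70425920, had a LOD of 15.0. It stood at percentiles of 96.2, 90.0 and 89.1, and lay 105.7 kb from the 5′ end. A second TET1 site at chr10:70415376-70415450 had a LOD of 14.9.

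Both TET genes had more recurrent bases at the 3′ end than the length of that stretch would give. Length was the only comparison, because the same share over other genes was not determined. In TET1, 325 of the 980 nt called in all 3 replicates (33.2%) lay in the last 5 kb, which is 3.73% of its length, with 10, 12 and 17 sites in the replicates. In TET2 it was 240 of 755 nt (31.8%) in 3.76% of its length, with 3, 11 and 13 sites. TET2 had a very wide site there, of 415 nt at chr4:106199476-106199890, with a LOD of 9.31. The combined sites of TET1 in its last 5 kb ran from a LOD of 0.204 to 12.1. With equal numbers of highest-scoring sites per list, the share in the last 5 kb was 22.5% in TET1 and 37.6% in TET2. Both were above the share of length. Neither gene had any base called in all 3 replicates in its first 5 kb, and the same held for DNMT3A, DNMT3B and EZH2.

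Sites went on beyond the end of the TET1 span. In the 5 kb past the 3′ end of its span, on the same strand, there were 17, 17 and 22 sites in replicates 1, 2 and 3, more than within the last 5 kb of the span. For DNMT3A the same stretch held 2, 4 and 7 sites, for HDAC2 2, 3 and 3, and for DNMT1 1, 1 and 2. None was found there for DNMT3B, TET2 or EZH2 in any replicate. In the 5 kb before the 5′ end, none of the 7 genes had a site in any replicate or in the combined list. These flanks were looked at after the other values were seen, and which transcript the sites beyond an end belong to was not tested.

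EZH2, the Polycomb methyltransferase, had many sites in the body of the gene and few recurrent bases in its last 5 kb. It lies at chr7:148504464-148581441 on the minus strand and spans 77.0 kb. It carried 36, 89 and 133 sites in replicates 1, 2 and 3, or 4.68, 11.6 and 17.3 per 10 kb, with a mean of 11.2 ± 6.31 (SD, n = 3). EZH2 was denser than DNMT1 in replicates 2 and 3 and sparser in replicate 1. Of its 154 combined sites, 29 (18.8%) overlapped all 3 replicate lists, against 22.9% of all combined sites, with no interval computed for this share. The p filter kept 86 (55.8%, Wilson interval 48.0 to 63.5), and that interval holds the 52.3% of all combined sites.

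Recurrent bases of EZH2 were gathered between 60 and 70 kb from the 5′ end. That stretch, chr7:148511442-148521441, held 666 of the 1370 nt called in all 3 replicates (48.6%), from 14, 28 and 33 sites. The last 5 kb held 50 nt (3.65%), less than its 6.50% of the length, and no base called in all 3 replicates lay within 2287 nt of the end. Without replicate 1 the share was 5.52%. In the last 10 kb the direction turned, with 20.4% of these bases in 13.0% of the length. The highest score of the gene was elsewhere, at chr7:148539791-148539875, 41.6 kb from the 5′ end, with a LOD of 20.5. It stood at percentiles 99.5, 98.7 and 99.6 of the replicate lists. A site at chr7:148571476-148571525, 9.92 kb from the 5′ end, had a LOD of 19.3.

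HDAC2, the histone deacetylase, was the most densely called member. It lies at chr6:114257320-114292359 on the minus strand and spans 35.0 kb, the shortest span of the 7. It carried 48, 88 and 93 sites in replicates 1, 2 and 3, or 13.7, 25.1 and 26.5 per 10 kb, with a mean of 21.8 ± 7.04 (SD, n = 3). The sites covered 7.59%, 18.9% and 19.2% of the span. As a share of the list, HDAC2 was highest in replicate 1 and lowest in replicate 3, at 2.58, 2.17 and 1.69 sites per 10000, in the same order as DNMT1.

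HDAC2 held 2465 of the 7855 nt called in all 3 replicates over the members, more than any other. These bases were in all 10 equal parts of its span, and no gap between them was longer than 3.37 kb. Of its 106 combined sites, 40 (37.7%) overlapped all 3 replicate lists, against 22.9% of all combined sites. The p filter kept 71 (67.0%, Wilson interval 57.6 to 75.2), against 52.3% of all combined sites. The highest score among the members was at chr6:114280971-114281065, 11.3 kb from the 5′ end, with a LOD of 23.7. Its percentiles were 99.9, 100.0 and 99.4 in the replicates, a mean of 99.8 ± 0.317 (SD, n = 3). A second HDAC2 site, at chr6:114279041-114279120, had a LOD of 22.3 and a mean percentile of 99.3 ± 0.886 (SD, n = 3).

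The order of the genes by mean site density was HDAC2, EZH2, DNMT1, TET1, TET2, DNMT3B and DNMT3A. It was the same within replicates 2 and 3, and in replicate 1 DNMT1 came before EZH2. All 6 neighbouring pairs had overlapping ranges over the replicates, which differ in list length, while 5 of the 6 kept their direction in every replicate. When density was also taken per 10000 sites of the list, some pairs no longer overlapped. HDAC2 then ran from 0.482 to 0.736 and EZH2 from 0.251 to 0.314 sites per 10 kb. DNMT1 ran from 0.197 to 0.296 and TET1 from 0.116 to 0.150. TET2 ran from 0.0686 to 0.128 and DNMT3B from 0.0425 to 0.0526. The remaining pairs still overlapped on this scale. With 3 replicates of 1 group and no second group with values, no test between genes was made. In the combined list, HDAC2 had 30.3 sites per 10 kb, EZH2 20.0 and DNMT1 13.1, against 8.95 for TET1, 8.64 for TET2, 3.19 for DNMT3B and 1.73 for DNMT3A. Over 97331 windows of 10 kb on 1 strand with any combined site, the median was 4 sites and the mean 6.77.

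Seen together, the members recurred at about the rate of all sites. In replicate 1, 156 of the 177 member sites (88.1%) were matched in each of the others, against 89.1% of the whole list. In replicate 2 it was 150 of 390 (38.5%) against 37.8%, and in replicate 3 it was 152 of 524 (29.0%) against 28.4%. Of the bases called in any replicate, 22.2% were called in all 3, against 21.8% over the genome. Of the 610 combined sites, 149 (24.4%) overlapped all 3 replicate lists, 192 overlapped 2, 221 overlapped 1 and 48 overlapped none. These shares are near the background and are no result about the 7 genes as a set.

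**Figure D3:**
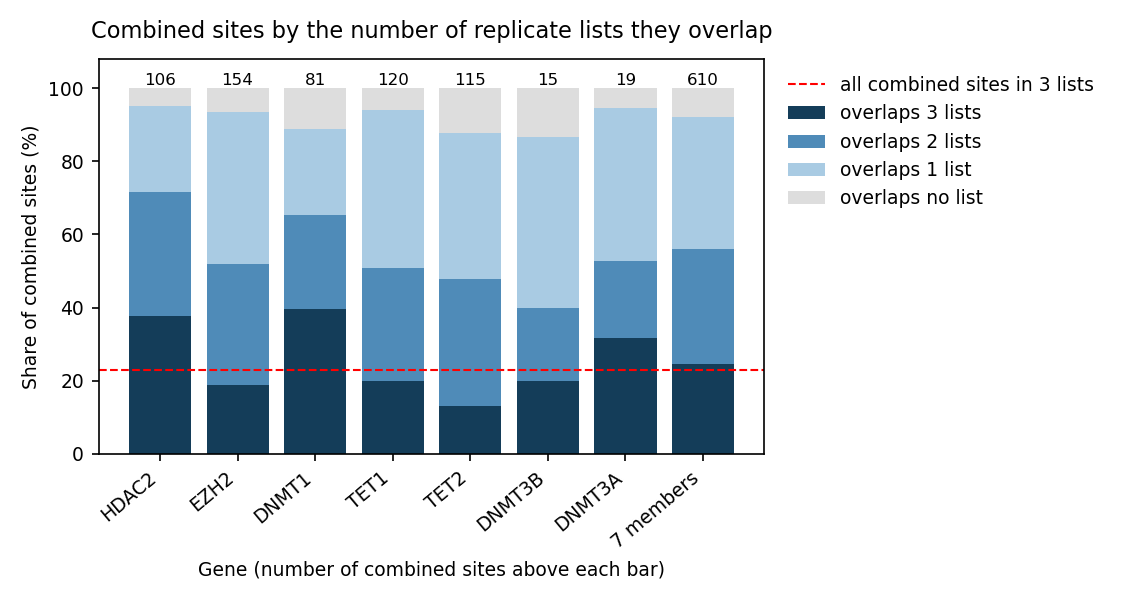
Share of combined sites that overlap 3, 2, 1 or no replicate list, for each of the 7 genes and for the members together, with the number of sites above each bar; the dashed line is the share of all combined sites in 3 lists, 22.9%. DNMT1 (39.5%), HDAC2 (37.7%) and DNMT3A (31.6%, of 19 sites) lie above the line, and TET2 (13.0%) lies lowest.

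The share of recurrent bases by gene depended on which lists were compared. Of the bases called in any replicate, 41.7% were called in all 3 for DNMT3A, 32.3% for DNMT1, 31.5% for HDAC2 and 28.0% for DNMT3B. The shares were 16.0% for EZH2, 15.1% for TET1 and 13.7% for TET2. With equal numbers of highest-scoring sites per list, DNMT3B fell to the lowest place at 13.6%, with EZH2 at 22.2%, TET1 at 17.1% and TET2 at 17.0%. Without replicate 1, the bases called in both remaining replicates ran from 47.3% for TET2 to 70.9% for HDAC2, with DNMT3B at 48.8%. EZH2, TET1 and TET2 also had the largest ratios of replicate 3 to replicate 1 sites, at 3.69 for EZH2, 3.83 for TET1 and 5.53 for TET2. The other ratios lay between 1.67 and 2.75. Sites found in 1 replicate alone count in the lower share, so both values describe the same lists.

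Member sites in more replicate lists had higher combined scores, as did all sites, and the combined list holds the same replicates. The median LOD was 12.0 for the 149 member sites in 3 replicate lists, 7.91 in 2, 5.16 in 1 and 3.37 in none, against 11.2, 7.76, 5.04 and 3.12 over all combined sites. The p filter kept 148 of the 149 sites in 3 lists (99.3%), close to the 98.1% of all such sites. The exception was a TET1 site at chr10:70452476-70452560 with a LOD of 2.73. In all, the p filter kept 351 member sites (57.5%, Wilson interval 53.6 to 61.4, counting error only), against 52.3% of all combined sites. The interval treats neighbouring sites of a gene as independent. The share differed by gene, from 47.0% in TET2 to 69.1% in DNMT1, so the interval is no test of the 7 genes as a set. By gene, the median LOD ran from 5.89 for TET2 to 8.07 for DNMT1, with 6.46 over all combined sites. DNMT1 and HDAC2 each had 21 sites above the 90th percentile of the combined list, which is 25.9% and 19.8% of their sites, whereas TET2 had 7 (6.09%).

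**Figure D4:**
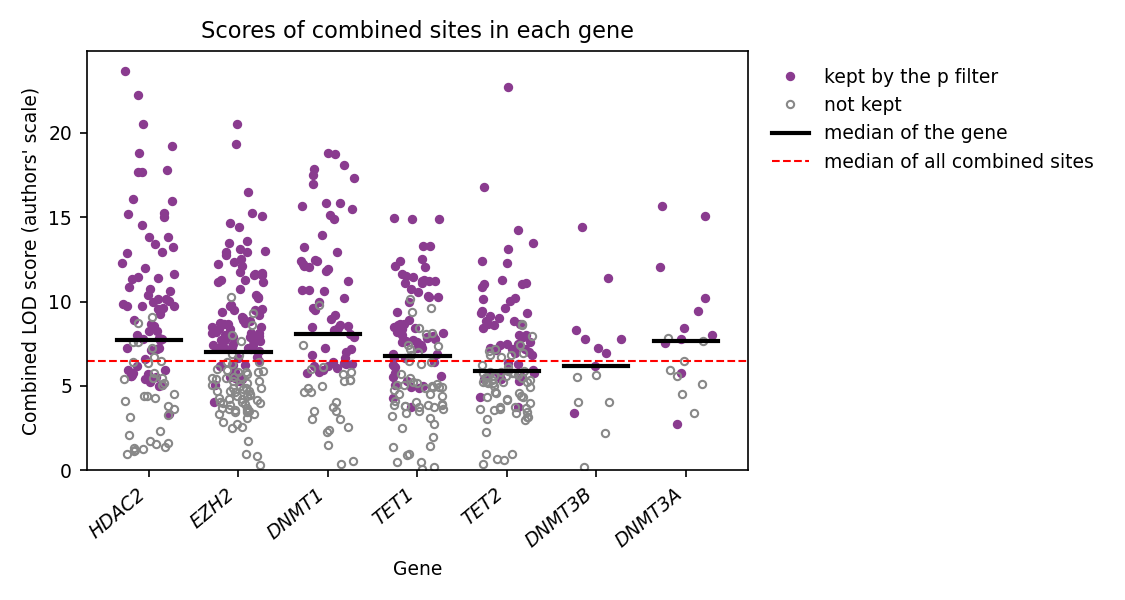
Combined LOD score of every combined site in the 7 genes, on the authors' scale; filled points were kept by the p filter, open points were not, black lines are gene medians and the dashed line is the median of all combined sites, 6.46. HDAC2, TET2 and EZH2 hold the sites above a LOD of 20, and the gene medians lie between 5.89 and 8.07.

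The last 5 kb held a larger share of recurrent bases than of length in every member but EZH2. Over the 7 genes, 2015 of 7855 nt (25.7%) lay in the last 5 kb, which is 5.86% of the length, and 230 nt (2.93%) lay in the first 5 kb. The same share over other genes was not determined, so an excess over length is not shown to be particular to these genes. The excess was large for DNMT3B, DNMT3A, TET1 and TET2 and smaller for HDAC2, with 640 nt (26.0%) in 14.3% of its length. In DNMT1 the last and the first 5 kb each held 190 nt (11.7%), in 8.10% of the length. In the p-filtered list, the share of bases in the last 5 kb was lower for DNMT3B (60.4%), TET1 (13.9%) and TET2 (19.0%), and still above the share of length. For DNMT1 it was 7.96%, just under the share of length, and without replicate 1 the DNMT1 share of recurrent bases was 6.81%, also under it. The last 10 kb of DNMT1 held no more recurrent bases than the last 5 kb, so its 11.7% lay under the 16.2% of the length. The direction also depended on the window for HDAC2, which had 4.46% of recurrent bases in its last 2 kb, or 5.71% of the length. DNMT3A, DNMT3B, TET1 and TET2 were above their share of length in the last 2, 5 and 10 kb. The combined site nearest the 3′ end overlapped all 3 replicate lists in DNMT1, DNMT3A and TET1. That site overlapped 2 lists in TET2, EZH2 and HDAC2, and 1 in DNMT3B. The p filter did not keep it in DNMT3B, TET2 or EZH2, where its LOD was 4.05, 5.22 and 2.86.

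**Figure D5:**
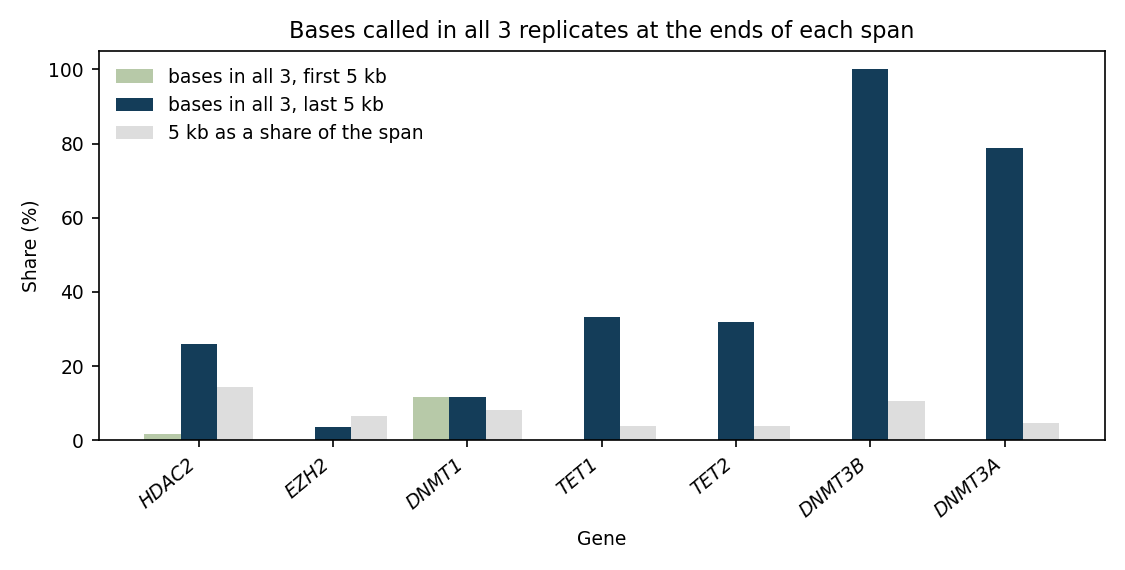
Share of the bases called in all 3 replicates that lie in the first 5 kb and in the last 5 kb of each gene span, beside 5 kb as a share of the span. The last 5 kb hold 100% in DNMT3B and 78.8% in DNMT3A, and 3.65% in EZH2.

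Lengths from GENCODE release 29, which is on GRCh38, give a scale for these values without placing any site. All 7 genes were matched, and 1 coding transcript was taken for each. Its 3′ untranslated region was 8030 nt long in HDAC2, 6424 nt in DNMT3A, 3297 nt in TET2, 2668 nt in TET1 and 1453 nt in DNMT3B. It was 261 nt in EZH2 and 127 nt in DNMT1, where the median over 18822 protein-coding genes was 808 nt. EZH2 was the only member whose called bases outran its exons: 8565 nt were called in any replicate, 4043 nt more than the 4522 nt of all its annotated exons merged. At least that many called bases of EZH2 therefore lie outside annotated exons, if exon lengths are alike on both builds. For the other 6 genes the called bases were fewer than the merged exons, which says nothing of where they lie.

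Counts of U-rich words went largely with the length of the 3′ untranslated region. The word UUUUU, counted with overlaps on the transcript strand, occurred 96 times in DNMT3A, 82 in HDAC2, 35 in TET2, 31 in DNMT3B, 12 in TET1, 3 in EZH2 and 1 in DNMT1. All 7 held it, as did 70.6% of all 18822 genes. Per kb it occurred 21.3 times in DNMT3B, 14.9 in DNMT3A, 11.5 in EZH2, 10.6 in TET2, 10.2 in HDAC2, 7.87 in DNMT1 and 4.50 in TET1, where the median gene had 4.06. The U content of DNMT3A, at 26.6%, was below the 29.3% of the median gene. The AU-rich word AUUUA occurred 29 times in HDAC2, 8 in TET2, 5 each in TET1 and DNMT3A and 2 in EZH2, and not in DNMT1 or DNMT3B. As a rate, AUUUA stood at 7.66 per kb in EZH2, 3.61 in HDAC2, 2.43 in TET2 and 1.87 in TET1. DNMT3A, at 0.778 per kb, was below the median gene at 1.34. Of all genes, 62.8% held it. A word in a transcript is a description and not a HuR site, and introns were not searched.

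Opposite-strand sites were few beside same-strand sites in the spans. The same rate over other gene spans was not determined, so it is not shown to be particular to these genes. Replicates 1, 2 and 3 had 1, 1 and 4 of them against 177, 390 and 524 on the strand of the gene, or 0.528 ± 0.255 per 100 same-strand sites (SD, n = 3). All lay in TET1, with 1, 1 and 2 sites, and DNMT3A, with 2 sites in replicate 3. No opposite-strand site was called in the other 5 genes in any replicate.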

How the data were processed

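The submitters' processing notes name TopHat2 2.0.8, cutadapt 1.0 and the build hg19 (GRCh37). The 5 deposited lists hold intervals with a LOD score computed by the authors, all above 0. The calling of intervals and the score's formula are not given in the sources. One of the combined lists carries a p limit of 0.05 in its name, set by the authors. Depth per library is unknown.

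Spans came with the choice of the 7 genes. The genes, measures and lists were chosen with earlier results of these data known. Scripts in Python 3.11.15 (pandas 2.3.3, numpy 2.4.6; Wilson intervals from scipy 1.17.1) counted same-strand intervals overlapping a span by at least 1 nt. The same overlap counted as recurrence. Bases were clipped to the span. Coordinates are 1-based. The interval code was tested on simulated intervals. For each gene the text names the recurrent site with the highest combined LOD. Where they add to the text, it also names the fullest 10-kb stretch and sites at the 3′ end. Second, widest and other sites, and flanks, were picked with their values known. The GENCODE transcript was the basic one with the longest coding part. Other genes of the pathway, for which no hg19 span was at hand, and markers of the cell line were not analysed here.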

Additional observations from a re-analysis of the deposited data

How the results depend on the processing

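Of 49 alternative values for the 7 results over all members, 36 stayed within their bound and 13 moved; of 252 values for single genes, 195 stayed and 57 moved. The bound was the SD over replicates or a 95% Wilson interval on units of 5 nt or on sites, and for the order a ratio of 1.5. For recurrence the SD was 31.8 points around 51.9%, from lists of unequal length, so values from 34.8% (at least 50% of each interval shared) to 76.2% (without replicate 1) stayed within it and the counts are no measure of stability. With equal numbers of highest-scoring sites, density was 3.15 sites per 10 kb, bases in all 3 replicates 25.4% and the share in the last 5 kb 20.7%; 5 of 7 genes kept their place, with DNMT1 before EZH2. Density was 10.2 in the combined list. Opposite-strand sites were 0.272 per 100 in the p-filtered list. With at least 50% of each interval shared, the p filter kept 46.1%. The 52.3% of all combined sites holds for an overlap of 1 nt. For the 50% overlap and for lists without a replicate, shares over all sites were not determined. The share of recurrent bases was 16.9% in the last 2 kb and 36.1% in the last 10 kb, and 16.5% of p-filtered bases lay in the last 5 kb. Without each replicate in turn, bases in all remaining replicates ranged from 25.9% to 56.5%, the last 5 kb from 19.1% to 26.3%, density from 4.74 to 7.65, recurrence from 59.7% to 76.2% and opposite-strand sites from 0.411 to 0.664. The value of 56.5% came without replicate 1. A longer or shorter end window and fewer sites change these values by construction, and the other causes were not tested. Unknown depth limits every statement on missing sites. No paired analysis was possible because the control samples have no values in the lists analysed.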

Other observations

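With each list limited to its 186157 highest-scoring sites, DNMT3A kept 9, 3 and 5 sites in replicates 1, 2 and 3, and DNMT3B kept 4, 2 and 2. HDAC2 kept 48, 49 and 41, DNMT1 34, 34 and 38 and EZH2 36, 44 and 44, so each of these genes had similar numbers in every list. TET1 kept 29, 33 and 42. TET2 had 17, 26 and 25 sites, with replicate 1 still the lowest.

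Of the 48 member sites in the combined list that overlap no replicate list, 8 were kept by the p filter, or 16.7%, against 10.4% of all such sites. Among these 8, TET2 had 3, DNMT1 and EZH2 had 2 each and TET1 had 1. The site with the highest score among them, at chr4:106177696-106177710 in TET2, had a LOD of 7.12 and a width of 15 nt. In the other direction, a DNMT1 site at chr19:10264886-10264915 had a LOD of 9.80, overlapped 1 replicate list and was not kept. Both were picked with their values known.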
